A study of Mus musculus with 12 samples.

Results

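Mouse chromosomes 8 and 10 were examined as whole chromosomes in 12 tumours profiled by array comparative genomic hybridisation. They were chosen by measured values, since an earlier look at the same tumours showed shallow losses there, and the members are all probes that the array files place on either chromosome in build mm9. These are 2 of 19 autosomes and 16667 of 161460 autosomal probes, or 10.3%. Chromosome 8 carried 8152 probes and 1039 gene names from 3130823 to 131734335, and chromosome 10 carried 8515 probes and 980 gene names from 3014678 to 129959362. Neighbouring probes lay a median of 11.14 kb apart on chromosome 8 and 11.11 kb on chromosome 10.

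The tumours came from C57BL/6 mice with a knockout of Mutyh (KO) or with wild-type Mutyh (WT), and each is named here by genotype and animal number. The 4 renal cell carcinomas were KO1080, KO1097 and KO1134 from Fe-NTA-treated knockouts and WT1179 from a treated wild type. The 8 malignant lymphomas were KO1077 and KO1111 (treated knockouts), WT1113, WT1114 and WT1121 (treated wild types), KO1414 (untreated knockout), and WT1405 and WT1420 (untreated wild types). Treated groups began with 20 male mice each and were given Fe-NTA in the peritoneum 5 times weekly over 12 weeks, with 3 mg of iron per kg in week 1 and then 5 mg per kg for 11 weeks, and animals were killed at about 120 weeks. How the knockout allele was built is not given in the sources used here, and a bulk tumour sample can hold normal cells. Each tumour had 1 array, on which tumour DNA was red and a common DNA from normal C57BL/6 kidney was green, so a positive log2 ratio means more DNA in the tumour. The arrays lay on 3 slides of 4, and slide 1 held the 4 carcinomas, so tumour type and slide cannot be told apart for them. At the Mutyh probe at chr4:116490496-116490555 the knockouts averaged -2.73 ± 0.30 and the wild types -0.17 ± 0.30 on the log2 scale (SD, n = 6 each), with no overlap between genotypes. At another Mutyh probe, chr4:116480656-116480715, the knockouts averaged -0.09 ± 0.28 and the wild types -0.05 ± 0.38 (SD, n = 6 each), and the genotypes overlapped.

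Fe-NTA is an iron chelate that generates free radicals in the proximal tubules of the kidney and gives rise to renal carcinoma in rodents, and Mutyh is a base excision repair enzyme that cuts out adenine placed opposite oxidised guanine. Loss of a chromosome lowers the dose of every gene on it, and in bulk DNA its depth depends both on how many copies are missing and on how many of the cells lack them. Chromosome 8 carries genes of very long reading frames or introns such as Csmd1 and Wwox, next to the cell adhesion gene Cdh1 and the DNA polymerase gene Polb. Chromosome 10 carries the oestrogen receptor gene Esr1, the regulator of p53 Mdm2, and the transcription factor genes Foxo3, Myb and Prdm1.

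The sequences that carry the result are the probes on both sides of each change in level. Capitals mark a probe inside the changed segment and lower case a probe outside it. The strand of the probes is not given in the sources used here, and they are written as in the array files. On chromosome 10 of carcinoma KO1134 a short segment of higher level began between the 1st and 2nd of these probes and ended between the 3rd and 4th, inside Esr1.
chr10:4251186-4251245, KO1134 at -0.23: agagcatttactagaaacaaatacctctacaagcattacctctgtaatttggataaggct
chr10:4303332-4303391, KO1134 at 0.21: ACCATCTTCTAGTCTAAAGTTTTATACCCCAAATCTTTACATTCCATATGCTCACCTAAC
chr10:5587593-5587652 in Esr1, KO1134 at 0.13: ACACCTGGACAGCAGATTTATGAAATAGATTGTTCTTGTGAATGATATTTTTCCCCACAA
chr10:5600264-5600323 in Esr1, KO1134 at -0.22: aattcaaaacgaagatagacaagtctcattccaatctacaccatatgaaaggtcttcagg

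On chromosome 10 of carcinoma KO1097 a segment of lower level lay between the following probes, with its right end beside Eya4.
chr10:16519585-16519644, KO1097 at 0.04: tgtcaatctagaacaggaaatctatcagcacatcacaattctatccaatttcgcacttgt
chr10:16553408-16553467, KO1097 at -0.16: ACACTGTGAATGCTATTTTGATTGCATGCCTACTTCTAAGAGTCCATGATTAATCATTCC
chr10:23219091-23219150, KO1097 at -0.65: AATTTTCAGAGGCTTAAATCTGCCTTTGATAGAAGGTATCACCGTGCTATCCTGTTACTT
chr10:23244316-23244375, KO1097 at 0.03: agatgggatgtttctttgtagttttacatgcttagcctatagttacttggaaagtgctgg

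On chromosome 8 of lymphoma WT1420 a segment of lower level ended inside Cdyl2, a gene of the chromodomain family, between the last 2 probes shown.
chr8:104295182-104295241, WT1420 at -0.02: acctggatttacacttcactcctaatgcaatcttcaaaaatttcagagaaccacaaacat
chr8:104338827-104338886, WT1420 at -0.16: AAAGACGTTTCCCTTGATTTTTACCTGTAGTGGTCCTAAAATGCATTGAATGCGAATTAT
chr8:119142049-119142107 in Cdyl2, WT1420 at -0.52: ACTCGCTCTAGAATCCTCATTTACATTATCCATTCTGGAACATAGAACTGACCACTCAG
chr8:119158385-119158444 in Cdyl2, WT1420 at 0.23: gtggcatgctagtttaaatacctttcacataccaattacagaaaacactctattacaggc

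Both chromosomes were low in 1 carcinoma, KO1134, over their whole length apart from the short segment of higher level on chromosome 10. Their means were near 0 in the other carcinomas, although KO1097 held the segment of lower level on chromosome 10. Chromosome 8 averaged -0.225 in KO1134, against 0.014 in KO1080, 0.024 in KO1097 and 0.010 in WT1179, as log2 ratios centred on each array's autosomal median. Chromosome 10 averaged -0.219 in KO1134, against 0.017 in KO1080, 0.016 in KO1097 and 0.012 in WT1179. These are the values on which the chromosomes were chosen, so they are given as a description with no test. The label of shallow losses on both chromosomes therefore fits KO1134 alone, and the lymphomas divide differently. In a bulk sample, a change in some of the cells and a smaller change in all of them cannot be told apart.

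In the 8 lymphomas, chromosome 8 ranged from -0.138 in KO1414 to 0.019 in KO1077, with a median of -0.015. The low values were those of KO1414, of WT1113 at -0.107 and of WT1405 at -0.082, and the other 5 lymphomas lay between -0.020 and 0.019. Chromosome 10 ranged in lymphomas from -0.087 in WT1405 to 0.059 in KO1414, with a median of 0.007. KO1414 thus had the lowest lymphoma value of chromosome 8 and the highest of chromosome 10. Chromosome 8 was also the lowest of the 19 autosomes in KO1414, and chromosome 19 was close to it at -0.125. With each probe centred on its median over the 8 lymphomas, which by construction takes out what they share, chromosome 8 read -0.094 in KO1414, -0.061 in WT1113 and -0.033 in WT1405, none of them at -0.10 or lower.

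The values of carcinomas and lymphomas overlapped on both chromosomes. Chromosome 8 averaged -0.044 ± 0.121 in carcinomas (SD, n = 4) and -0.043 ± 0.058 in lymphomas (SD, n = 8), and chromosome 10 averaged -0.044 ± 0.117 and 0.002 ± 0.040 in the same order. The spread of the carcinomas rests on KO1134. Without it the 3 other carcinomas averaged 0.016 ± 0.007 on chromosome 8 and 0.015 ± 0.003 on chromosome 10 (SD, n = 3).

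**Figure D1:**
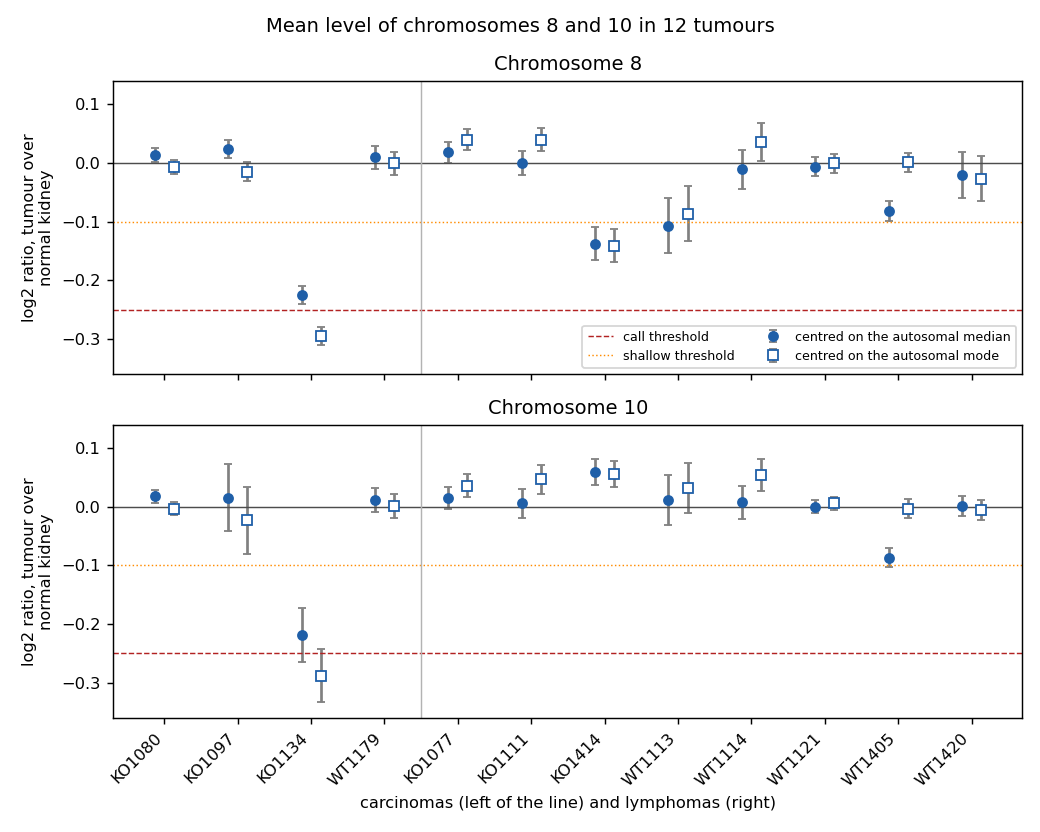
Mean log2 ratio of chromosome 8 (top) and chromosome 10 (bottom) in each of the 12 tumours, carcinomas left of the grey line and lymphomas right of it. Filled circles are values centred on the autosomal median and open squares values centred on the autosomal mode, bars are 1 SD over 5-Mb windows, and the lines mark -0.10 and -0.25. KO1134 is lowest on both chromosomes under either centring, while WT1405 moves from about -0.08 to about 0 with the mode.

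The centre of the array decided how deep these changes appeared and whether they were called. The median makes the middle autosomal probe 0, whereas the mode makes the most frequent level 0. In KO1134 the mode lay 0.070 above the median, which put chromosome 8 at -0.295 and chromosome 10 at -0.288. In the other carcinomas the mode lay 0.021 (KO1080), 0.039 (KO1097) and 0.011 (WT1179) above the median, and their chromosome 8 and 10 means then ranged from -0.023 to 0.001.

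Other autosomes of KO1134 show where both centres sit. With the median, 11 of its 19 autosomes had means between 0.062 and 0.076, and with the mode the same 11 had means between -0.008 and 0.007. The other 8 autosomes, numbers 3, 4, 8, 9, 10, 12, 13 and 14, all lay lower, between -0.330 and -0.101 with the mode. Among these 8, chromosome 8 was the most even along its length, with an SD of 0.016 over its 27 windows of 5 Mb, against 0.17 on chromosome 3, 0.204 on chromosome 9 and 0.138 on chromosome 12. The 11 higher autosomes had window SDs of 0.010 to 0.017, so chromosome 8 was as even as they were. Windows of a chromosome share the array and are not replicates.

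**Figure D2:**
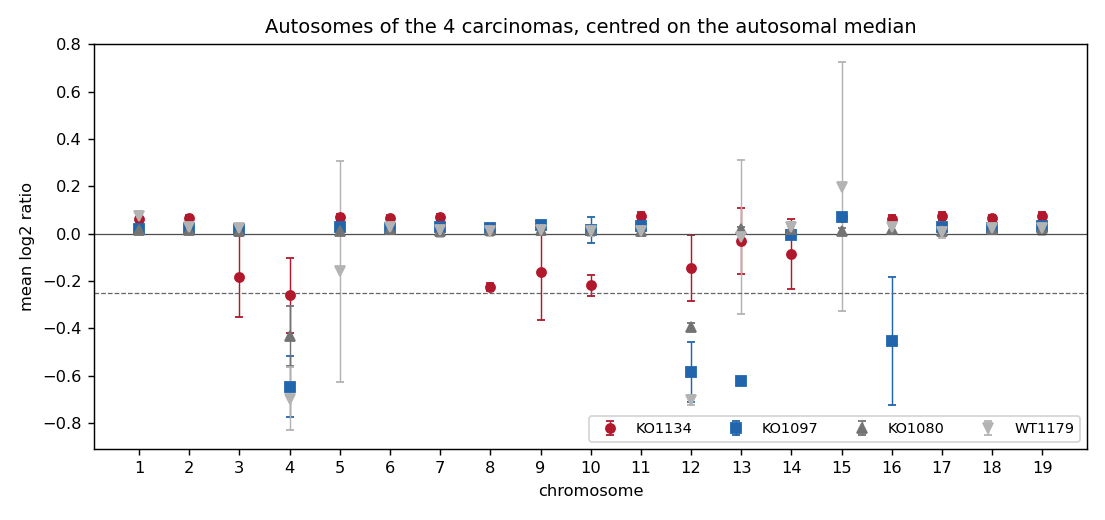
Mean log2 ratio of each of the 19 autosomes in the 4 carcinomas, centred on the autosomal median, with bars of 1 SD over 5-Mb windows and a dashed line at -0.25. In KO1134 (red circles) chromosomes 8 and 10 lie near -0.22 with short bars, 11 autosomes lie slightly above 0, and the chromosome 3, 9, 12, 13 and 14 means have long bars.

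The opposite shift appeared in lymphoma WT1405. Its mode lay -0.084 from its median, and its chromosome 8 mean was 0.001 with the mode, against -0.082 with the median. Its chromosome 10 mean was -0.003 with the mode, against -0.087 with the median. Chromosome 4 of the same tumour, outside the stretch around Mutyh, was -0.093 with the median, so both chromosomes sat at its level before centring on the mode as well. That level was common in WT1405, since chromosomes 2, 3, 7, 9, 12, 13 and 14 lay between -0.093 and -0.078 with the median. Chromosomes 1, 5, 6, 11, 15, 17 and 18 lay between 0.155 and 0.440. In KO1414 the centres differed by 0.004 and chromosome 8 stayed at -0.141, and in WT1113 it was -0.086 with the mode.

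Segments of at least 5 probes with a mean of 0.25 or more from 0 were called losses or gains, and those between 0.10 and 0.25 from 0 are described as shallow. With the median, 0 of 12 tumours had a called loss on chromosome 8 and 1 had one on chromosome 10. With the mode, 1 tumour (KO1134) had a called loss on chromosome 8, and 2 (KO1097 and KO1134) had one on chromosome 10. Over all 228 pairs of a tumour and an autosome, 3.51% with the median and 6.58% with the mode had at least 50% of their probes in called losses. A mean of -0.10 or lower was found in 8.77% of the pairs with the median and in 8.77% with the mode. On chromosomes 8 and 10 that held for 4 pairs with the median (both chromosomes of KO1134, and chromosome 8 of KO1414 and of WT1113) and for 3 with the mode, since WT1113 then read -0.086. Nothing is read from these shares, since the chromosomes were chosen on the values themselves.

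Values near the thresholds show how fine the calls are. Chromosome 8 of KO1134, at -0.225, lay just outside the call with the median, and the KO1097 segment of chromosome 10, at -0.253, lay just inside it. For the threshold of -0.10, chromosome 8 of WT1113 at -0.107 lay inside, and both chromosomes of WT1405, at -0.082 and -0.087, lay outside.

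Along chromosome 8, KO1134 was the lowest of the 12 tumours in 27 of 27 windows, from -0.262 to -0.196. Along chromosome 10 it was lowest in 25 of 26 windows. The exception was the first window, which holds the gained segment and averaged -0.015, and the lowest window there was -0.248. In KO1414 all 27 windows of chromosome 8 were below 0, 24 of them at -0.10 or lower, from -0.183 to -0.075. WT1113 had 15 windows of chromosome 8 at -0.10 or lower, from -0.210 to -0.042, which was a wider range than that of KO1414. In WT1405 all 27 windows of chromosome 8 and all 26 of chromosome 10 were below 0 with the median, and 3 and 4 of them were at -0.10 or lower.

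**Figure D3:**
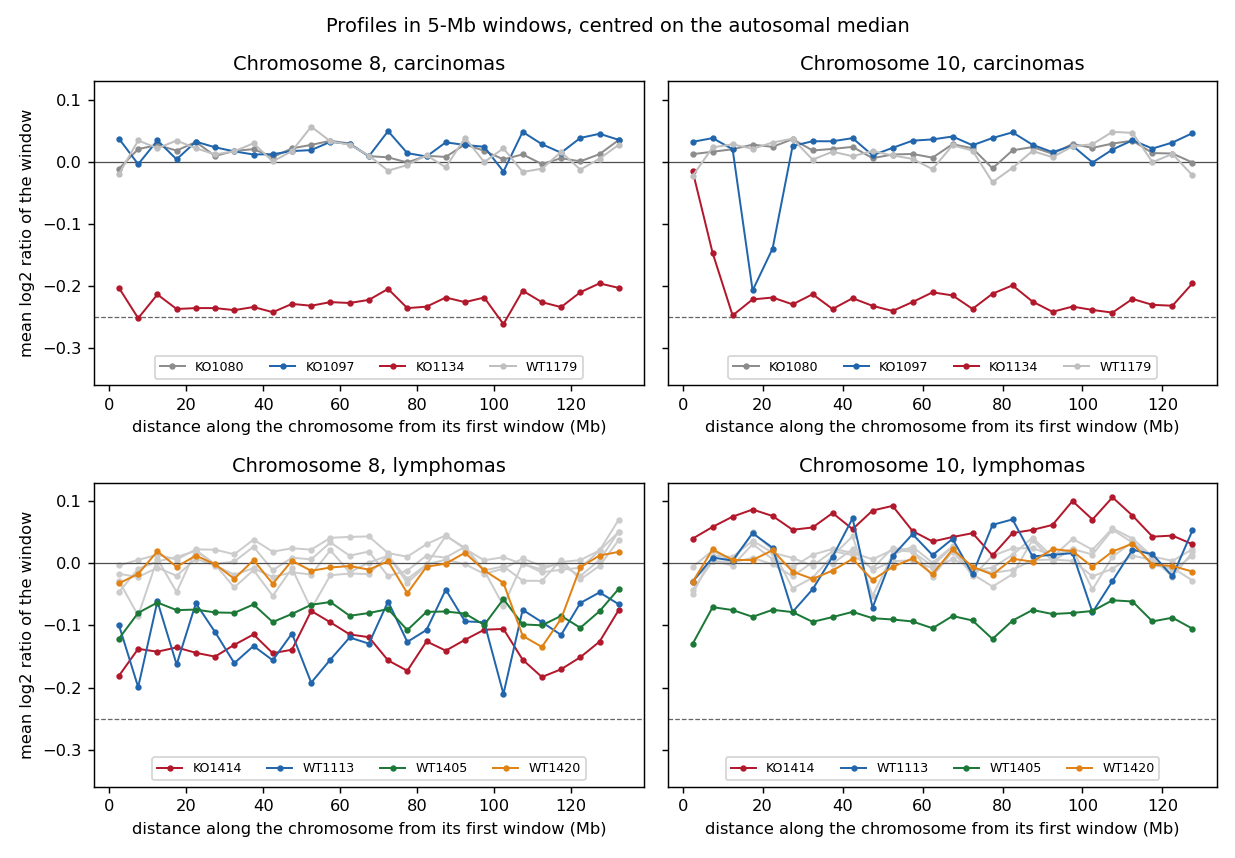
Mean log2 ratio in 5-Mb windows along chromosome 8 (left) and chromosome 10 (right), centred on the autosomal median, for the 4 carcinomas (top) and the 8 lymphomas (bottom, with 4 tumours in pale grey), against the distance from the first window in Mb. The dashed line is -0.25. KO1134 runs flat near -0.22 on both chromosomes apart from the start of chromosome 10, KO1097 dips near 20 Mb of chromosome 10, and WT1420 dips near the end of chromosome 8.

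Change points were few on these chromosomes. Segmentation found 7 on chromosome 8 and 10 on chromosome 10 over the 12 tumours, against 426 on all autosomes. On chromosome 8, 10 of 12 tumours had 0 change points, and on chromosome 10, 8 of 12 had 0. KO1134 and KO1414 had none on chromosome 8, so each was fitted by 1 segment across 128.6 Mb.

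Chromosome 10 of KO1134 held 3 segments. The first, chr10:3014678-4251245, read -0.230 over 71 probes, and the last, chr10:5600264-129959362, read -0.225 over 8338 probes. Between them chr10:4303332-5587652, a segment of 1.28 Mb and 105 probes, read 0.278 and was called gained with the median. With the mode it read 0.209, which is below the call. The steps at its ends do not depend on the centre, and they were 0.508 up and 0.503 down. The interval read 0.008, 0.031 and -0.001 in KO1080, KO1097 and WT1179. In the lymphomas it read between -0.093 and 0.064, so KO1134 did not overlap any other tumour there. The interval was drawn from the values of KO1134, so this gap is a description only.

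The gained segment held 7 gene names. Syne1, which encodes a large protein linking the nucleus to the cytoskeleton, read 0.264 over 38 probes, and Rgs17, a regulator of G protein signalling, read 0.319 over 10 probes. Mtrf1l, a mitochondrial release factor, read 0.428 over 2 probes, Vip, which encodes vasoactive intestinal peptide, 0.319 over 1 probe, and Myct1 0.372 over 1 probe. The right end cut Esr1, the gene of oestrogen receptor alpha. Its 24 probes from 5348925 to 5587652 averaged 0.265 ± 0.167 and its 13 probes from 5600264 to 5732199 averaged -0.263 ± 0.085 (SD over probes), so the mean of the whole gene, 0.079, describes neither stretch. The change lay between probes 12.6 kb apart, and positions whose fit was nearly as good spanned 28.6 kb. At the left end the probes lay 52.1 kb apart, between the transcript ENSMUST00000063036 and Rgs17.

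In KO1097 chromosome 10 held 1 lost segment, chr10:16553408-23219150, of 6.67 Mb, 435 probes and 50 gene names. It read -0.253 with the median and -0.291 with the mode, against 0.030 and -0.009 over the rest of the chromosome. The same interval read -0.220 in KO1134, 0.029 in KO1080 and 0.027 in WT1179, and between -0.082 and 0.083 in lymphomas. KO1097 and KO1134 were thus both below the range of all others, although the interval was drawn from the values of KO1097. The left end lay between probes 33.8 kb apart, with positions of nearly equal fit over 61.9 kb, and the right end between probes 25.2 kb apart.

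Of the 50 genes of that segment, 46 lay at -0.10 or lower in KO1097, and all 50 ranged from -0.631 to -0.013 with a median of -0.2496. Eya4, a transcriptional coactivator of the eyes absent family, read -0.313 over 26 probes in KO1097. Tnfaip3, which encodes the inhibitor of NF-kappa-B signalling A20, read -0.298 over 2 probes, and Perp, an effector of p53 in apoptosis, read -0.319 on 1 probe. Myb, a transcription factor of blood progenitors, read -0.232 over 4 probes, Map3k5, a kinase of the oxidative stress response, -0.210 over 21 probes, and Sgk1, a kinase that controls sodium channels of the kidney tubule, -0.236 over 11 probes. Ifngr1, a chain of the interferon gamma receptor, read -0.237 over 2 probes, and Il20ra, an interleukin receptor chain, -0.352 over 6 probes.

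Among lymphomas, WT1420 had a shallow segment on chromosome 8, chr8:104338827-119142107, of 14.8 Mb, 1041 probes and 168 gene names, at -0.125. The stretches on its left and right read -0.006 and 0.006. The same interval read -0.224 in KO1134, -0.168 in KO1414, -0.101 in WT1113 and -0.094 in WT1405, so it was lower in KO1134 and KO1414 than in WT1420. With each probe centred on its median over the lymphomas, the segment of WT1420 read -0.061, which is no longer shallow. That centring by construction takes out what lymphomas share, and KO1414, WT1113 and WT1405 were low there too, so nothing is read from this value. At the right end the 4 probes of Cdyl2 inside the segment averaged -0.25 ± 0.20 and the 9 outside it 0.10 ± 0.14. Wwox, a large gene at a common fragile site, lies in the segment and read -0.134 over 90 probes in WT1420. The left end was poorly placed, since positions of nearly equal fit spanned 724 kb.

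WT1113 carried 5 of the 7 change points of chromosome 8. Its 6 segments read -0.127 over 43.11 Mb, -0.009 over 2.0 Mb, -0.162 over 19.86 Mb, -0.084 over 30.54 Mb, -0.205 over 7.9 Mb and -0.072 over 25.09 Mb. The lowest segment held 1.5 gene names per Mb, and the next lowest 3.8, whereas the 2.0-Mb segment nearest 0 held 14.5. Over the 27 windows of chromosome 8 in this tumour, Pearson's r of the level with gene names per window was 0.70 and with the GC content of the probes 0.73, where all windows share the array. For KO1134 these values were 0.58 and 0.62, for KO1414 -0.44 and -0.47. On chromosome 10, WT1113 held 5 segments between -0.090 and 0.028, none of them called or shallow. The part of gene density and GC content in these steps was not tested.

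On chromosome 10 of WT1420, a called gain from 65041612 to 65200208 rests on 1 of its 5 probes. That probe, chr10:65200149-65200208, read 5.61 in WT1420 and between -0.23 and 0.13 in the other tumours, and the segment mean of 1.18 had an SD of 2.48 over probes. It holds no gene name.

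Depth was set against chromosome 4 of the same tumour, outside a stretch around Mutyh that differs between the genotypes, over 8856 probes with 1120 left out. In KO1134 chromosome 4 read -0.228, chromosome 8 -0.225 and chromosome 10 -0.219, so that chromosomes 8 and 10 reached 0.989 and 0.961 of the chromosome 4 level. As amounts of DNA, 14.5% was missing on chromosome 8, 14.1% on chromosome 10 and 14.6% on chromosome 4. With the mode these were 18.5%, 18.1% and 18.6%, and the ratios of levels were 0.992 and 0.970. For scale, absence of 1 of 2 copies from every cell would give a log2 ratio of -1 and 50% less DNA. All 3 chromosomes of KO1134 were thus at nearly the same depth, and the differences between their log2 levels do not depend on the centre. Other autosomes of KO1134 came near it. With arrays centred on the median, the median probe was at -0.230 on chromosome 8 and -0.226 on chromosome 10. It was at -0.229 on chromosome 3 and -0.208 on chromosome 9, but at -0.171, 0.000 and -0.084 on chromosomes 12, 13 and 14.

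In the other carcinomas chromosome 4 was deeper and chromosomes 8 and 10 were not low. Chromosome 4 read -0.405 in KO1080, -0.620 in KO1097 and -0.696 in WT1179, where the levels of chromosomes 8 and 10 came to between -0.043 and -0.015 of it. The lost segment of KO1097 was shallower than chromosome 4 of that tumour, at 0.408 of its level with the median and 0.442 with the mode. In amounts, 16.1% of DNA was missing from the segment and 34.9% from chromosome 4. Among lymphomas only WT1113 had a chromosome 4 level of -0.10 or lower, at -0.136, and its chromosome 8 reached 0.786 of it. KO1414 had a chromosome 4 level of -0.038 beside its chromosome 8 level of -0.137, so it has no ratio here.

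**Figure D4:**
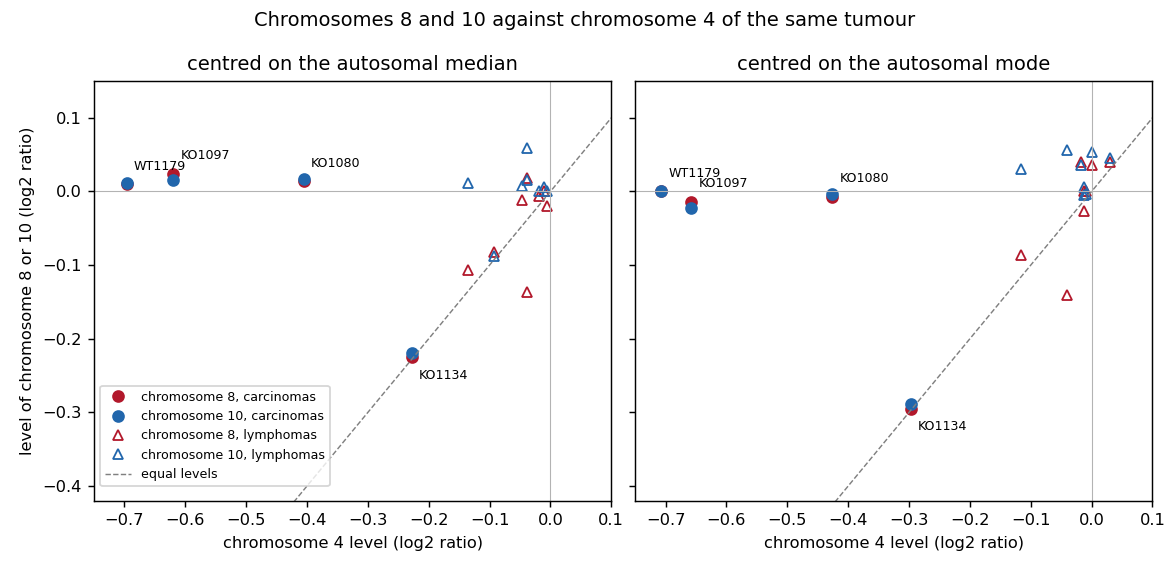
Level of chromosome 8 (red) and chromosome 10 (blue) against the level of chromosome 4 in the same tumour, both as mean log2 ratios, for carcinomas (filled circles, named) and lymphomas (open triangles), centred on the median (left) and on the mode (right). The dashed line marks equal levels. KO1134 lies on that line under both centrings, and the other 3 carcinomas lie near 0 on the vertical axis with chromosome 4 between -0.70 and -0.40.

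Genes of 5 lists were then read in KO1134, with all genes of the same chromosome beside them. Of all 20283 autosomal genes, 30.5% lay at -0.10 or lower in KO1134 and 24.4% were lowest in KO1134 among the 4 carcinomas. On chromosome 8, 908 of 1035 genes lay at -0.10 or lower, with a median of -0.219. On chromosome 10, 851 of 977 did so, with a median of -0.216. Both follow from how the chromosomes were chosen.

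Tumour suppressor and cell cycle genes of chromosome 8 had a KO1134 median of -0.226, and 20 of 20 measured genes lay at -0.10 or lower. Wwox read -0.247 over 90 probes in KO1134, against 0.001 in KO1080, 0.008 in KO1097 and 0.016 in WT1179. Csmd1, a gene of a large complement control protein, read -0.247 over 165 probes in KO1134, against 0.019, -0.008 and 0.055 in those 3. Cdh1, which encodes E-cadherin of epithelial junctions, read -0.264, Fat1, a large cadherin, -0.242, and Cyld, a deubiquitinase of NF-kappa-B signalling, -0.230. The genes with many probes thus sat at the level of the chromosome.

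DNA repair genes of chromosome 8 had a median of -0.209 in KO1134, and 7 of 8 lay at -0.10 or lower. Wrn, the helicase of Werner syndrome, read -0.210 over 17 probes, and Polb, the polymerase of base excision repair, -0.356 over 2 probes. Neil3, a glycosylase for oxidised bases, read -0.144 over 5 probes. The exception was Lig4, a ligase of end joining, at -0.057 on 1 probe, which read between 0.187 and 0.314 in the other carcinomas. Genes of iron, haem and oxidative defence were few, and 2 of 3 lay at -0.10 or lower. Gsr, glutathione reductase, read -0.123 and Nqo1, a quinone reductase, -0.058 on 1 probe.

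Kidney and vessel genes of chromosome 8 had a median of -0.217, with 9 of 9 at -0.10 or lower, among them Nrp1, a receptor of vascular growth factors, at -0.217 and Vegfc, a growth factor of lymphatic vessels, at -0.223. Of the lymphoid and immune genes, 11 of 13 were at -0.10 or lower with a median of -0.219. Irf8, a transcription factor of B cells and myeloid cells read by 1 probe, was at 0.165 in KO1134, and at 0.254, 0.314 and 0.310 in KO1080, KO1097 and WT1179. Irf8 was therefore still the lowest in KO1134, as were 52 of the 53 list genes of chromosome 8 and 986 of its 1035 genes.

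On chromosome 10, 18 of 18 tumour suppressor and cell cycle genes lay at -0.10 or lower in KO1134, with a median of -0.246. Foxo3, a transcription factor of stress resistance, read -0.241 over 10 probes in KO1134, against 0.038 in KO1080, 0.033 in KO1097 and 0.068 in WT1179. Ctnna3, an alpha-catenin with 160 probes, read -0.234 in KO1134, against 0.028, 0.003 and 0.029 in those 3. Lats1, a kinase of the Hippo pathway, read -0.204, Apaf1, which builds the apoptosome, -0.209, and Hmga2, a chromatin architecture factor, -0.324. Mdm2, the ubiquitin ligase of p53, read -0.25 over 2 probes in KO1134, against -0.18 in KO1080, -0.04 in KO1097 and -0.17 in WT1179. Cdk1, the kinase of mitotic entry, read -0.294 in KO1134, against -0.265 in KO1080, -0.087 in KO1097 and -0.224 in WT1179. In both genes KO1134 thus lay close to KO1080 and WT1179.

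DNA repair genes of chromosome 10 lay at -0.10 or lower in 7 of 7 cases, with a median of -0.223. Rev3l, the catalytic subunit of a translesion polymerase, read -0.252 over 12 probes, and Tdg, the thymine DNA glycosylase, -0.260 over 2 probes. All 5 genes of iron, haem and oxidative defence lay at -0.10 or lower with a median of -0.174, and Txnrd1, thioredoxin reductase, read -0.174 over 6 probes. Of 12 kidney and vessel genes 11 did so, with a median of -0.219. The exception was Esr1, which the gain cuts. Igf1, an insulin-like growth factor, read -0.227 and Bicc1, an RNA-binding protein whose loss gives cystic kidneys in mice, -0.211. Of 18 lymphoid and immune genes 16 did so, with a median of -0.210, among them Fyn, a Src family kinase, at -0.268 and Prdm1, a regulator of plasma cells, at -0.241.

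KO1134 minus the mean of the 3 other carcinomas gave a median of -0.237 over the 53 list genes of chromosome 8, and of -0.236 over all its 1035 genes. On chromosome 10 these medians were -0.213 over 60 list genes and -0.231 over 977 genes. On chromosome 10, 49 of the 60 list genes and 886 of the 977 genes were lowest in KO1134 among the carcinomas. The list genes thus read as the chromosome did on chromosome 8. On chromosome 10 a smaller share of the list genes was lowest in KO1134, 81.7% against 90.7% of all its genes. Some genes of 1 probe, such as Lig4 and Irf8, lay away from the level of their chromosome.

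**Figure D5:**
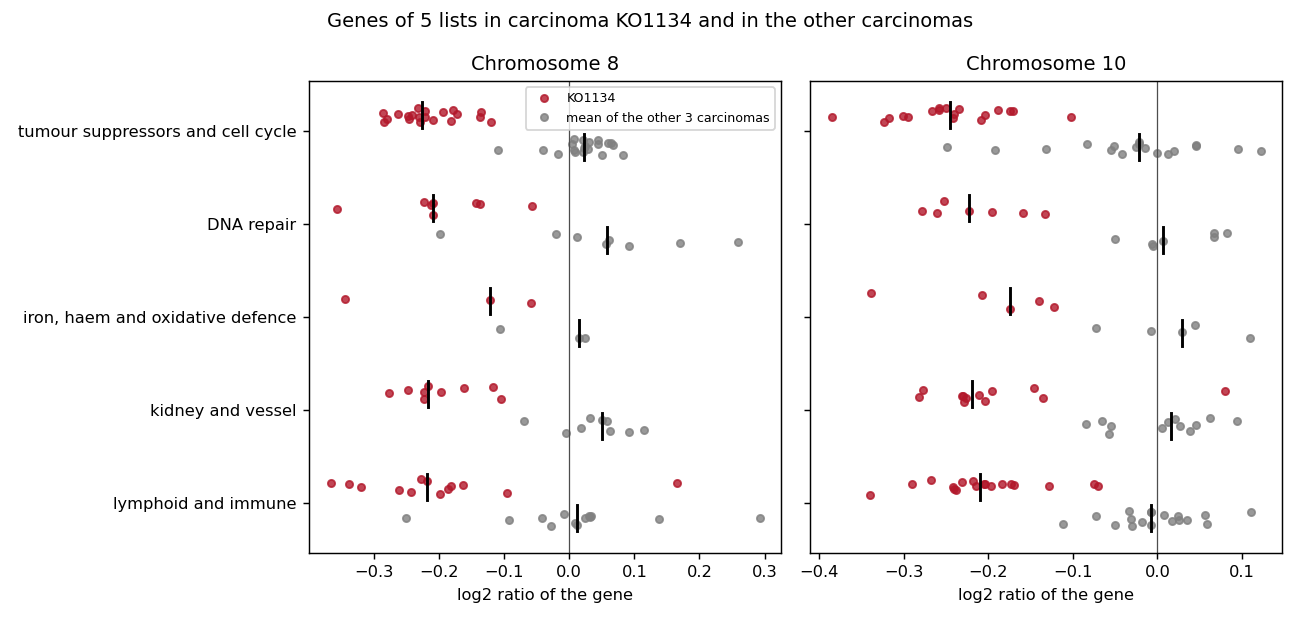
Log2 ratio of each gene of 5 lists on chromosome 8 (left) and chromosome 10 (right), centred on the autosomal median. Red points are carcinoma KO1134, grey points are the mean of the other 3 carcinomas, each point is 1 gene and the black bars are medians. Red medians lie between -0.25 and -0.12 and grey medians near 0 in every list.

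In lymphoma KO1414, the 53 list genes of chromosome 8 had a median of -0.103, with 29 at -0.10 or lower and 49 below 0. Over all 1035 genes of the chromosome the median was -0.138, with 687 at -0.10 or lower, and of all autosomal genes 21.4% lay that low in KO1414. Its tumour suppressor and cell cycle genes had a median of -0.111 and its lymphoid and immune genes -0.165. Wwox read -0.210, Cdh1 -0.217 and Jak3, a kinase of cytokine receptors in lymphocytes, -0.222 in KO1414, whereas Cyld read -0.007 and Rbl2, a relative of the retinoblastoma protein, 0.005. These 5 genes were chosen after their values were seen. On chromosome 10 the 60 list genes of KO1414 had a median of 0.058, with 2 at -0.10 or lower, against a median of 0.060 and 54 over all 977 genes.

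Genes of these chromosomes were ranked by carcinoma minus lymphoma, and examples from the low end alone are given here. These examples were not low in KO1134 alone, which a ranking by the mean of all 4 carcinomas itself favours. Klhdc4, a kelch domain gene of 3 probes on chromosome 8, read -0.785 in KO1134, -0.474 in KO1080, -0.390 in KO1097 and -0.468 in WT1179, against a lymphoma mean of -0.062 ± 0.110 (SD, n = 8). Cog2, a subunit of a Golgi tethering complex, read -0.63, -0.44, -0.35 and -0.17 in the same order, against -0.059 ± 0.054. Zbtb7a, a transcriptional repressor on chromosome 10 read by 2 probes, averaged -0.239 ± 0.102 in carcinomas and 0.164 ± 0.148 in lymphomas. In a limma fit with additive terms for treatment, genotype and type of tumour, 24 genes of chromosome 8 had an adjusted p under 0.05 for carcinoma minus lymphoma, 11 higher and 13 lower, and 33 genes of chromosome 10, 1 higher and 32 lower. The split on chromosome 8 moved with the centre and with KO1134, to 2 higher and 29 lower with the mode and 24 higher and 7 lower without KO1134. On chromosome 10 it was 1 higher and 60 lower with the mode and 10 higher and 18 lower without KO1134. Over all autosomal genes 12.5% were called. This contrast is close to the one that chose the chromosomes, and nothing is read from these counts.

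Genotype and treatment were tested, since neither label entered the choice of the chromosomes, although KO1134, on which the choice rests, is a knockout. For treatment in lymphomas, chromosome 8 averaged -0.021 ± 0.049 in 5 treated and -0.080 ± 0.059 in 3 untreated tumours. The difference of 0.059 had a two-sided exact permutation p of 0.232 over 56 splits, and 0.724 after adjustment over 19 autosomes. Chromosome 10 averaged 0.008 ± 0.005 in treated lymphomas and -0.009 ± 0.074 in untreated ones. This difference of 0.017 had an exact permutation p of 0.571, or 0.724 adjusted. Slide 3 alone held both treated and untreated lymphomas, and there WT1121 (treated) read -0.006 on chromosome 8 and the 3 untreated lymphomas -0.080 ± 0.059.

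Knockouts and wild types were compared within tumour type. On chromosome 8 the 3 knockout carcinomas averaged -0.063 ± 0.141 and the wild-type carcinoma read 0.010, and the 3 knockout lymphomas averaged -0.040 ± 0.085 and the 5 wild-type lymphomas -0.045 ± 0.046. The difference was -0.017, and its two-sided exact permutation p over 224 splits was 0.772, or 0.905 adjusted. Without KO1134 it was 0.006, without KO1414 it was 0.011 and without WT1179 it was 0.006. On chromosome 10 the knockout carcinomas averaged -0.062 ± 0.136 and the wild-type carcinoma read 0.012, and the knockout lymphomas averaged 0.027 ± 0.029 and the wild-type lymphomas -0.014 ± 0.041. The difference was 0.008, and its exact permutation p was 0.817, or 0.905 adjusted. Under alternatives it was -0.009 centred on the mode, -0.010 without KO1414, -0.007 without WT1405 and about 0 without KO1080.

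Within slides the genotype differences had no common sign. On chromosome 8 they were -0.073 on slide 1, 0.068 on slide 2 and -0.101 on slide 3, and on chromosome 10 they were -0.074, 0.001 and 0.088. Slide 1 set 3 knockouts against 1 wild type, slide 2 set 2 against 2, and slide 3 set 1 against 3. The knockout on slide 3 was the untreated KO1414, and the wild types there included the treated WT1121. Of the 19 autosomes, 0% passed an adjusted p of 0.05 for genotype and 0% for treatment by the exact permutation tests. At an unadjusted p under 0.05 there were 1 for genotype and 0 for treatment. With 224 splits for genotype and 56 for treatment, 1 autosome alone could not have reached an adjusted p of 0.05. Nothing is therefore read from the adjusted counts about a single chromosome.

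Gene by gene, limma called 0 genes of chromosome 8 and 0 of chromosome 10 between knockouts and wild types. With an unadjusted p under 0.05 there were 9 of 1035 and 5 of 977, against 1054 of all 20283 autosomal genes. None of the list genes was called for genotype or for treatment, and at an unadjusted p under 0.05 these numbered 0 for genotype on both chromosomes, and 4 on chromosome 8 and 5 on chromosome 10 for treatment. Over all autosomal genes 0.0641% were called for genotype. Between treated and untreated tumours limma again called 0 on each chromosome, and 0% of all autosomal genes were called. At an unadjusted p under 0.05 there were 154 of 1035 on chromosome 8 and 79 of 977 on chromosome 10. Over all autosomes there were 2329 of 20283. Without the treated lymphoma WT1121, 20 genes were called on each chromosome, 19 of those on chromosome 8 and all 20 on chromosome 10 higher in treated tumours, against 2.28% of all autosomal genes. In that fit every untreated tumour lay on slide 3 and every treated one on slide 1 or 2, so that slide and treatment cannot be told apart. The median treatment difference over the 1035 genes of chromosome 8 was 0.066, against 0.013 over all autosomal genes.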

How the data were processed

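The deposited files hold intensity values which, per the file headers, are Feature Extraction's processed red and green signals, background-subtracted and dye-normalized with the linear method, and the submitters' processing notes name version 10.7. Per the file headers, the deposited LogRatio column is the log10 of red over green. The series-wide table that the authors deposited holds log2 ratios that correlated at 0.999943 or more with the scanner values. Each array held 174305 spots, 99.856% or more of them well above background, so precision is limited by how many arrays there are. The log2 of red over green was taken per spot, outlier spots were left out, spots of a probe were averaged, and arrays were centred on the autosomal median, or on the mode of a kernel density of bandwidth 0.03.

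Segmentation used penalised least squares with a penalty of 10 noise variances times the log of the probe count. A gene's value was the mean of its probes. limma 3.58.1 (R 4.3.3) was fitted over 20283 genes with Benjamini-Hochberg adjustment, and chromosome tests were exact permutation tests in Python 3.11.15. All were run on simulated data of independent noise, which held no trends along a chromosome. The permutation test was run there without the split by tumour type. Gene names are those of the array, and 691 of 1039 on chromosome 8 and 633 of 980 on chromosome 10 are current RefSeq symbols. The genes named were list members, genes at change points, and the 3 lowest and 3 highest by carcinoma minus lymphoma per chromosome. Genes of called segments named beyond this were chosen after their values were seen. The chromosomes, lists, tests and alternatives were chosen with earlier results of these data known. Nothing but the animal numbers says that samples of a group are separate animals, so p-values measure the spread between these samples. Probe sequences were copied from the array files.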

Additional observations from a re-analysis of the deposited data

Results flagged for a closer look

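Of 14 groups of levels or segments examined, 8 held a sample whose gap to its nearest neighbour was large for the range of its group. Chance gives about 1 in 20, but that rate does not apply to groups of values on which chromosomes and segments were chosen. KO1134 stood apart from the other carcinomas on chromosome 8, at -0.225 against 0.010 to 0.024, on chromosome 10, at -0.219 against 0.012 to 0.017, and in its gained segment of chromosome 10, at 0.278 against -0.001 to 0.031. These are the values on which the chromosomes were chosen. WT1113 stood apart from the other treated lymphomas on chromosome 8, at -0.107 against -0.011 to 0.019. WT1405 stood apart on chromosome 10, at -0.087, both from the other lymphomas, at 0.000 to 0.059, and from the other wild-type lymphomas, and its value was -0.003 with the mode. The short segment of WT1420 on chromosome 10, at 1.18 on the strength of 1 probe, stood apart from the other lymphomas, at -0.034 to 0.157, and from the other wild-type lymphomas, at -0.034 to 0.018.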

How the results depend on the processing

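Of 351 alternative values for 25 results, 286 kept their direction and their side of the threshold, or moved by less than the spread between tumours or, for counts, by less than 1.5 times, 56 moved further and 9 turned their sign. Some of the 286 could hardly have differed. The LogRatio column and the series-wide table carry the same signals as the main values, and change points do not depend on the array's centre. The levels of chromosomes 8 and 10 in KO1134 were -0.295 and -0.288 with the mode, -0.293 and -0.286 with the mode of the running median, -0.236 and -0.230 with normexp, and -0.168 and -0.203 with probes centred on their median over lymphomas, and the median of the probes of chromosome 10 was -0.226. The depth of chromosome 10 against chromosome 4 in KO1134 was 1.23 with probes centred over lymphomas. Tumours with a called loss on chromosome 8 numbered 1 with the mode, the mode of the running median, normexp, probes centred over lymphomas and a penalty of 5, and 2 at a threshold of 0.15. On chromosome 10 they numbered 2 with the mode, the mode of the running median, normexp and the 0.15 threshold, and 0 at 0.4. Change points on chromosome 8 numbered 36 and 3 with penalties of 5 and 20, 15 with normexp, 12 with outlier spots kept and 22 with probes centred over lymphomas, and on chromosome 10 they numbered 33, 6 and 19 with penalties of 5 and 20 and probes centred over lymphomas. None of the 76 alternatives of the 4 permutation tests reached an adjusted p of 0.05, which 1 autosome alone could not have reached with so few splits. The genotype difference of chromosome 10 was -0.0091 with the mode and -0.0146 with the mode of the running median, and ranged from -0.0098 to 0.040 when each tumour was left out in turn. The genotype difference of chromosome 8 ranged from -0.0406 to 0.0106 when each tumour was left out, and the treatment difference of chromosome 10 from -0.0224 (without WT1405) to 0.0506. The treatment difference of chromosome 8 had an unadjusted exact permutation p of 0.0286 without WT1113. Genes called by limma for tumour type on chromosome 10 numbered 61 with the mode, 52 with the mode of the running median, 20 with normexp, 8 with at least 2 probes per gene and 67 with slide as a random block, and 13 (without KO1111) to 55 (without WT1121) when each tumour was left out. On chromosome 8 they numbered 7 with at least 2 probes per gene, 55 with slide as a random block, and 9 (without KO1111) to 47 (without WT1121) when each tumour was left out. For treatment, slide as a random block gave 1 gene on chromosome 8, and leaving out each tumour gave 0 to 20 on chromosome 8 and 0 to 20 on chromosome 10. The cause of these moves was not tested. No paired analysis was possible because the groups compared share no replicate numbers.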

Other observations

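The higher level of chromosome 10 in lymphoma KO1414 was even along the chromosome. All 26 of its windows lay above 0, between 0.013 and 0.107, with an SD of 0.023, and the mean was 0.056 with the mode. This was not particular to chromosome 10, since chromosomes 2, 11, 12, 16 and 17 of KO1414 had higher means. With the median, chromosomes 2, 16 and 17 averaged 0.060, 0.066 and 0.087, with window SDs of 0.027, 0.027 and 0.025. On chromosome 8 the carcinoma KO1097 and the lymphoma WT1113 both had higher levels in windows with more gene names, with Pearson's r of 0.67 and 0.70 over 27 windows, whereas WT1179 had -0.69. Windows of 1 array share that array, and the levels of KO1097 spanned -0.016 to 0.049.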
